A study of Mus musculus with 8 samples.

Results

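The genes described here are 10 genes of klotho, vitamin D, phosphate and calcium handling in the kidney, namely Kl, Vdr, Cyp27b1, Cyp24a1, Slc34a1, Slc34a3, Trpv5, Calb1, Pth1r and Casr. They were taken by gene symbol, with no threshold on measured values, but the list was chosen with earlier results of these data known. All 10 were found among the 34745 genes listed, and all 10 were among the 16576 genes with enough counts to be tested. The deposited table places, on the plus strand of GRCm38, Kl at chr5:150952607-150993817, Cyp27b1 at chr10:127048250-127053006, Slc34a1 at chr13:55399648-55414695 and Calb1 at chr4:15881264-15908064. On the minus strand it places Vdr at chr15:97854425-97910630, Cyp24a1 at chr2:170482708-170497145, Slc34a3 at chr2:25228898-25234364, Trpv5 at chr6:41652173-41680769, Pth1r at chr9:110722085-110747145 and Casr at chr16:36493696-36562141. RNA sequencing was done on kidney tissue of wild-type mice at day 14, in 3 libraries labelled uIRI+MSC (uIRI with transplanted MSCs), 3 labelled uIRI and 2 labelled sham. In the renal literature uIRI is ischaemia-reperfusion injury of a single kidney, whose blood flow is stopped for a time and then let back, and MSC is a mesenchymal stem or stromal cell. The labels used here spell out neither term and give no source, dose or time of the cells, and do not tie libraries to animals, so p-values measure only the spread between these libraries, which may be technical.

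Klotho, encoded by Kl, is a membrane protein of renal tubules that turns FGF receptors into receptors for FGF23, the bone hormone that makes the kidney excrete phosphate. FGF23 signalling lowers the proximal sodium-phosphate cotransporters and the vitamin D activating enzyme and raises the vitamin D degrading enzyme. Parathyroid hormone, acting through the receptor encoded by Pth1r, also lowers phosphate uptake but raises vitamin D activation, and active vitamin D acts through the nuclear receptor encoded by Vdr. Calcium is reclaimed in the distal nephron through the channel TRPV5 and the buffer calbindin, while the calcium-sensing receptor, encoded by Casr, adjusts calcium reabsorption in the thick ascending limb.

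Depth was between 11.6 and 24.3 in units of 1e6 counts per library, and transcripts of mitochondrial DNA took 6.07 to 11.3% of the counts in uIRI+MSC, 3.49 to 4.84% in uIRI and 14.2% in both sham libraries. The first principal component, with 72.7% of the variance, separated the groups, and uIRI 1 lay at its far end at -89.6, against -58.1 and -53.5 for the other uIRI libraries. Library uIRI 1 held the lowest level of the uIRI group for 10 of the 10 genes. Calls and directions that change without it are given beside the value. Kidney markers were present in all groups, with the summed level of 12 proximal tubule markers at 3367 to 4375 CPM in uIRI+MSC, 675 to 2260 CPM in uIRI and 13154 to 15200 CPM in sham (CPM, counts scaled to a library of 1e6 after TMM scaling).

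To show the sequence from which these genes are transcribed, the 250 bases before the annotated start are given for the gene that names the group (Kl), for the phosphate transporter whose promoter held motif matches (Slc34a1), and for the pair of genes that did not fall in uIRI (Cyp27b1 and Trpv5). They come from RefSeq on GRCm38.p6, which held a promoter for 8 of the 10 genes. Capitals mark motif matches.
Kl, chr5:150952357-150952606, plus strand: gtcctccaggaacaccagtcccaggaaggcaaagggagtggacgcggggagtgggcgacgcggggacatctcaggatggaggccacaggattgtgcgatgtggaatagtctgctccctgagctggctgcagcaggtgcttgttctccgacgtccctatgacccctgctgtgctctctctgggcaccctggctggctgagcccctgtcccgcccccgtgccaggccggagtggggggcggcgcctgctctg
Slc34a1, chr13:55399398-55399647, plus strand: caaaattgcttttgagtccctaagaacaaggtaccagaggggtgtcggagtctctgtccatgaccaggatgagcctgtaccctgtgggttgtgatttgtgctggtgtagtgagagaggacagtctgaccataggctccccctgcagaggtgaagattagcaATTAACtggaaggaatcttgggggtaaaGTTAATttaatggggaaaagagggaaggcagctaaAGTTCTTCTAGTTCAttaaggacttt
Cyp27b1, chr10:127047996-127048245, plus strand: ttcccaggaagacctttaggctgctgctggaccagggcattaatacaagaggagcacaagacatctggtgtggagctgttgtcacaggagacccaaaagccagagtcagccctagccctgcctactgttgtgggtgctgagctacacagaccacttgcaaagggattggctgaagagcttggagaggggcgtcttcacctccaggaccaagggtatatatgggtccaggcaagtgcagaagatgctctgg
Trpv5, chr6:41680724-41680973, minus strand: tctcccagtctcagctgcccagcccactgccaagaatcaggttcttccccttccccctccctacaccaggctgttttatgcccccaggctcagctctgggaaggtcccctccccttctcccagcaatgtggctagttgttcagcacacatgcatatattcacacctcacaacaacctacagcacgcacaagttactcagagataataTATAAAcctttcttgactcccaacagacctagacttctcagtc

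The promoters were searched on both strands for TATAAA, the TATA box, found in 12.4% of 32851 promoters of the same length, for GTTAAT, part of the motif of the tubular factor HNF1, found in 6.43%, and for DR3, the direct repeat bound by the vitamin D receptor with its partner RXR, found with at most 1 mismatch in 1.4%. In Slc34a1 the capitals are, in order, GTTAAT read on the minus strand at -89 to -84, GTTAAT on the plus strand at -61 to -56 and DR3 on the plus strand at -26 to -12 with 1 mismatch, counted from the annotated start. Capitals in Trpv5 mark TATAAA at -43 to -38, and no match overlapped another. These positions count from the RefSeq start, and for Trpv5 the deposited table differs. Its Trpv5 span reaches 41680769, past the near end of the window at 41680724. The TATAAA match therefore lies inside the gene as the deposited table places it. The Kl and Cyp27b1 sequences held no match, which says only that these letters are not in this window. Guanine and cytosine made up 66.8% of the Kl promoter, 46.4% of that of Slc34a1, 54.4% of that of Cyp27b1 and 51.6% of that of Trpv5, against a median of 52.4% over all promoters. A match is a description of letters and no measurement of binding.

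Comparing uIRI with sham shows what differed in the kidney at day 14. Of the 10 genes, 8 fell and 0 rose at an adjusted p under 0.05 (edgeR quasi-likelihood test, Benjamini-Hochberg over all genes tested), and every uIRI library was below both sham libraries for each of the 8. Over all genes tested 36.5% had every uIRI library below both sham libraries. The genes that did not pass were Cyp27b1 and Trpv5. Over all genes tested 54.6% passed the same threshold and 26.3% passed it as lower, so a call by itself was common, and 77.1% had groups that did not overlap in either direction. The median log2 fold change was -2.06 over the 10 genes and 0.06 over all genes tested. In whole-tissue RNA, fewer cells of a type and less RNA per cell cannot be told apart, nor can more cells and more RNA per cell. This holds for every fall and every rise below, those of the pathway lists included.

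Kl, the FGF23 co-receptor, had 71.7, 219.8 and 207 CPM in the uIRI libraries, against 1327 and 1429 CPM in the sham libraries. All 3 uIRI libraries were thus far below sham, uIRI 1 the most. The log2 fold change was -3.05 ± 0.41 (SE; adjusted p = 0.000386, edgeR), a level 8.29-fold lower.

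Among the vitamin D genes, Vdr, the receptor of active vitamin D, had 67.1, 146.7 and 114 CPM in uIRI against 510.5 and 451 CPM in sham, and its log2 fold change was -2.14 ± 0.28 (adjusted p = 0.000342, edgeR). Cyp24a1, the mitochondrial hydroxylase that degrades vitamin D, had 25.1, 91.8 and 42.9 CPM in uIRI against 213 and 209 CPM in sham. Its log2 fold change was -1.98 ± 0.44 (adjusted p = 0.00498, edgeR), and the uIRI libraries differed from each other far more than the sham libraries did. Cyp27b1, the hydroxylase that makes the active hormone, behaved otherwise: it had 4.95, 20.8 and 16.4 CPM in uIRI against 4.47 and 10.8 CPM in sham. The groups overlapped through uIRI 1 alone, since uIRI 2 and uIRI 3 lay above both sham libraries. With all libraries the log2 fold change of Cyp27b1 was 0.88 ± 0.58 and did not pass (adjusted p = 0.230, edgeR). Without uIRI 1 it was 1.29 with an adjusted p of 0.0231 (edgeR), within a range of adjusted p of 0.0231 to 0.679 over the 18 alternatives tried, of which 2 called it.

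The phosphate transporters fell together. Slc34a1, the main sodium-phosphate cotransporter of the proximal tubule brush border, had 438, 1507 and 1269 CPM in uIRI against 7276 and 7421 CPM in sham, a log2 fold change of -2.78 ± 0.45 (adjusted p = 0.00103, edgeR). Slc34a3, its less abundant relative, had 5.66, 15.4 and 15.4 CPM in uIRI against 92.8 and 97.6 CPM in sham, a log2 fold change of -2.98 ± 0.37 (adjusted p = 0.000272, edgeR). For both genes the highest uIRI library was far under the lower sham library.

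The calcium genes of the distal nephron parted. Calb1, which encodes the cytosolic calcium buffer calbindin, had 7.74, 26.0 and 28.6 CPM in uIRI against 509.6 and 531 CPM in sham. Its log2 fold change of -4.65 ± 0.61 (adjusted p = 0.000355, edgeR) was the lowest of the 10 genes, a level 25.1-fold lower. Trpv5, the apical calcium channel of the same segments, had 20.5, 30.3 and 30.0 CPM in uIRI against 22.5 and 23.4 CPM in sham. The groups overlapped, and the log2 fold change of 0.23 ± 0.30 did not pass (adjusted p = 0.547, edgeR). Trpv5 shares much sequence with its neighbour Trpv6, and the handling of reads that fit both genes is not stated in the labels or headers, so the division of reads between them is uncertain.

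Of the receptors, Pth1r, which binds parathyroid hormone, had 166, 290.1 and 272 CPM in uIRI against 952 and 881 CPM in sham, a log2 fold change of -1.92 ± 0.25 (adjusted p = 0.000353, edgeR). Casr, the calcium-sensing receptor, had 33.7, 47.0 and 54.3 CPM in uIRI against 85.2 and 102 CPM in sham, a log2 fold change of -1.06 ± 0.23 (adjusted p = 0.00489, edgeR). The fall of Casr was the smallest of the 8, and it alone among the 8 lost its call when libraries were scaled by size alone, with a log2 fold change of -0.41 (adjusted p = 0.138, edgeR; range over the 18 alternatives 0.000168 to 0.138). That scaling moved the median of all genes to 0.73 and called Cyp27b1, at 1.5 (adjusted p = 0.0462, edgeR), and Trpv5, at 0.89 (adjusted p = 0.0307, edgeR), as higher. The directions of both genes were the same as with TMM scaling.

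**Figure D1:**
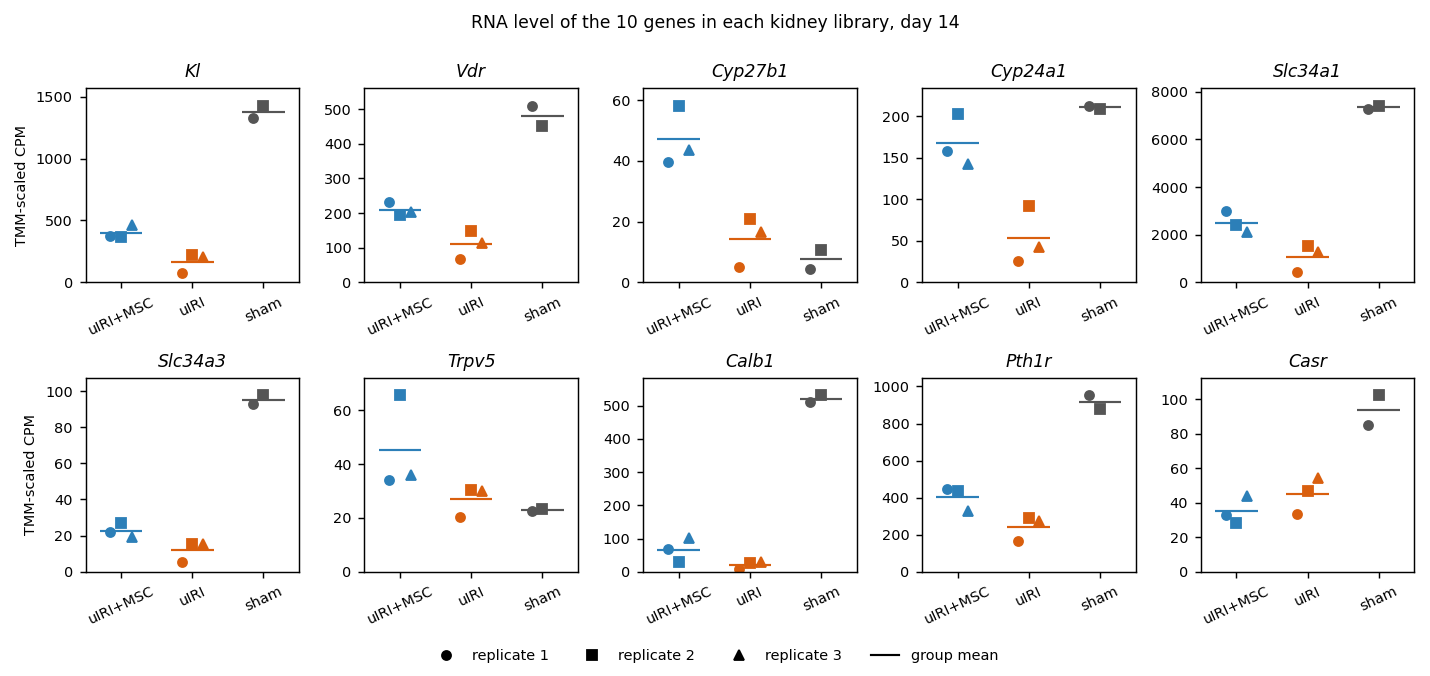
Level of each of the 10 genes in TMM-scaled CPM (vertical axis, from 0, its own range in each panel) in every uIRI+MSC, uIRI and sham library. Points are libraries, their shape gives the replicate number and the line is the group mean. In this scaling the sham mean is highest for all genes except Cyp27b1 and Trpv5, whose mean is highest in uIRI+MSC.

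Some member genes overlap others in the annotation. Pth1r shares 5285 bases with Myl3 on the opposite strand, and Cyp24a1 shares 718 bases with Pfdn4 on the opposite strand. The labels and headers do not state whether counting used the strand. Myl3 had at most 14 counts in any library. Pfdn4 had 6.63 to 9.01 CPM in uIRI+MSC, 9.26 to 9.75 CPM in uIRI and 10.7 to 11.8 CPM in sham, below the lowest Cyp24a1 value of 25.1 CPM.

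The comparison of uIRI+MSC with uIRI asks whether transplanted cells moved these genes in the injured kidney. In the edgeR test 0 of the 16576 genes tested passed (0%), and so none of the 10 did. Before adjustment 3418 genes had a p under 0.05, while DESeq2 called 1364 genes and limma-voom 0. Without uIRI 1 edgeR called 8 genes, none of them among the 10. The 10 genes lay mostly on the same side: 9 of 10 were higher in uIRI+MSC at an unadjusted p under 0.05, against 11.3% of all genes tested. For the same 9 every uIRI+MSC library stood above every uIRI library, against 14.2% of all genes tested. The list was chosen with earlier results of these data known, so these shares are a description and no test. The number of the 10 with an unadjusted p under 0.05, in either direction, was 8 without uIRI+MSC 1 and 7 without uIRI+MSC 2 (edgeR). The median log2 fold change was 1.08 over the 10 genes and -0.01 over all genes tested.

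Kl had 373, 362 and 462 CPM in uIRI+MSC, against 71.7, 219.8 and 207 CPM in uIRI, a log2 fold change of 1.26 ± 0.37 (adjusted p = 0.129, edgeR). Cyp24a1 had 158, 202 and 143 CPM in uIRI+MSC, against 25.1, 91.8 and 42.9 CPM in uIRI, and its log2 fold change was 1.65 ± 0.41 (adjusted p = 0.114, edgeR). Cyp27b1 had 39.6, 58.2 and 43.7 CPM in uIRI+MSC, against 4.95, 20.8 and 16.4 CPM in uIRI, and its log2 fold change was 1.75 ± 0.49 (adjusted p = 0.124, edgeR). For the activating and the degrading enzyme alike, the lowest uIRI+MSC library was well above the highest uIRI library. Calb1 had 68.0, 29.9 and 103 CPM in uIRI+MSC, against 7.74, 26.0 and 28.6 CPM in uIRI, so that uIRI+MSC 2 was scarcely above uIRI 3. Its log2 fold change was 1.69 ± 0.53 (adjusted p = 0.141, edgeR).

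Slc34a1 had 2984, 2388 and 2096 CPM in uIRI+MSC, against 438, 1507 and 1269 CPM in uIRI (log2 fold change 1.22 ± 0.41, adjusted p = 0.159, edgeR). Vdr had 231, 195 and 202 CPM in uIRI+MSC, against 67.1, 146.7 and 114 CPM in uIRI. Pth1r had 449, 436 and 327 CPM in uIRI+MSC, against 166, 290.1 and 272 CPM in uIRI. In both genes the lowest uIRI+MSC library was above uIRI 2, the highest of uIRI. Slc34a3 had 21.9, 27.2 and 19.4 CPM in uIRI+MSC, against 5.66, 15.4 and 15.4 CPM in uIRI. The 4 remaining genes that were higher by the unadjusted p had log2 fold changes of 0.94 ± 0.25 for Vdr, 0.92 ± 0.34 for Slc34a3, 0.74 ± 0.27 for Trpv5 and 0.74 ± 0.23 for Pth1r, with adjusted p between 0.123 and 0.184 (edgeR). Casr, by contrast, had 33.2, 28.5 and 43.8 CPM in uIRI+MSC against 33.7, 47.0 and 54.3 CPM in uIRI. Its groups overlapped, and its log2 fold change was -0.35 ± 0.21 (adjusted p = 0.383, edgeR). DESeq2, unlike edgeR, called 7 of the 10 genes as higher in uIRI+MSC: Kl (adjusted p = 0.0126), Cyp27b1 (0.00924), Cyp24a1 (0.00277), Vdr (0.0145), Slc34a1 (0.0259), Calb1 (0.0143) and Pth1r (0.0383). None of the other 17 alternatives called any of them.

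**Figure D2:**
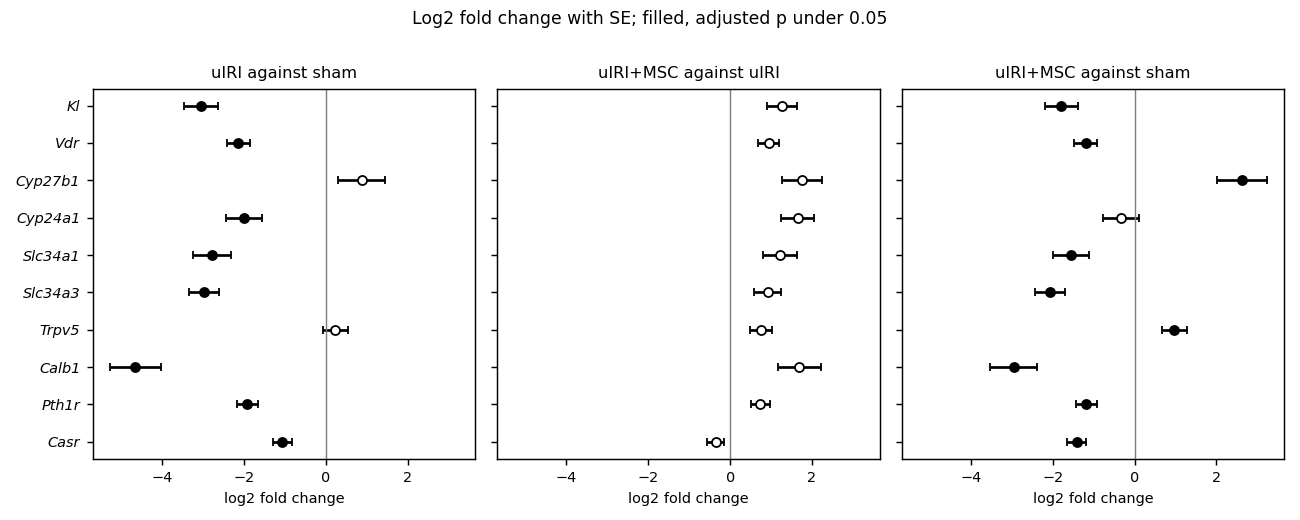
Log2 fold change of each of the 10 genes (horizontal axis, bars are the SE) in the 3 comparisons, with filled points for an adjusted p under 0.05 (edgeR). Of the points, 8 are filled on the lower side for uIRI against sham, none for uIRI+MSC against uIRI, and 7 lower and 2 higher for uIRI+MSC against sham.

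Set against sham, uIRI+MSC kidneys had 7 of the 10 genes lower, 2 higher and 1, Cyp24a1, that did not pass. Over all genes tested 42.4% passed, 22.1% as higher and 20.3% as lower. The 2 comparisons with sham share the sham libraries. The log2 fold changes of the lower genes were -2.96 ± 0.58 for Calb1, -2.06 ± 0.36 for Slc34a3, -1.79 ± 0.40 for Kl, -1.56 ± 0.44 for Slc34a1, -1.42 ± 0.24 for Casr, -1.20 ± 0.28 for Vdr and -1.18 ± 0.25 for Pth1r, with adjusted p between 0.00197 and 0.0212 (edgeR).

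Cyp27b1 was higher in uIRI+MSC, with 39.6, 58.2 and 43.7 CPM against 4.47 and 10.8 CPM in sham, a log2 fold change of 2.62 ± 0.61 (adjusted p = 0.00907, edgeR), which is 6.16-fold. All 3 uIRI+MSC libraries were above both sham libraries. Trpv5 was higher too, with 33.9, 65.5 and 36.0 CPM in uIRI+MSC against 22.5 and 23.4 CPM in sham (log2 fold change 0.97 ± 0.31, adjusted p = 0.0333, edgeR). Library uIRI+MSC 2 stood well above the others, and without it the Trpv5 change was 0.61 and no longer passed (adjusted p = 0.0605, edgeR; range over the 18 alternatives 0.00459 to 0.145, of which 14 called it). Cyp24a1 had 158, 202 and 143 CPM in uIRI+MSC against 213 and 209 CPM in sham. All 3 uIRI+MSC libraries were lower than sham, but the log2 fold change of -0.33 ± 0.44 did not pass (adjusted p = 0.573, edgeR), and it turned to 0.19 with scaling by library size alone.

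The calls against sham rest on 2 libraries. Without sham 1 only 4 of the 10 genes passed in uIRI+MSC, with sham 2 assumed to vary like the other groups. The lost calls were Cyp27b1, Vdr, Slc34a1, Trpv5 and Pth1r. The Trpv5 call was also lost without sham 2 (adjusted p = 0.112, edgeR). The Slc34a1 call was also lost without sham 2, without uIRI+MSC 2 and without uIRI+MSC 3, with adjusted p between 0.0591 and 0.0886 over the leave-one-out fits that lost it (edgeR). With scaling by library size alone Slc34a1 was at -1.05 and did not pass (adjusted p = 0.0613, edgeR).

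Levels were compared between genes with the deposited FPKM, which divide by gene length. They follow library size without TMM scaling, so they order genes within a group and do not compare groups. Cyp24a1, for example, had a higher mean FPKM in uIRI+MSC than in sham, but a lower mean CPM, 168 against 211. In sham the order ran from Slc34a1 at 1755 ± 126 FPKM (SD, n = 2) and Pth1r at 143 ± 0.357 through Kl at 97.3 ± 10.7, Calb1 at 70.6 ± 6.10, Vdr at 57.8 ± 1.75, Cyp24a1 at 43.5 ± 1.9, Slc34a3 at 20.6 ± 1.93, Casr at 10.5 ± 1.95 and Trpv5 at 4.63 ± 0.388 to Cyp27b1 at 1.47 ± 0.926. In uIRI+MSC Cyp24a1 ranked 3 of 10 at 49.6 ± 10.1 FPKM (n = 3), with Kl at 40.1 ± 4.67 and Vdr at 36.0 ± 3.40 within the spread of each other. In uIRI Calb1 at 4.41 ± 2.33, Cyp27b1 at 4.16 ± 2.33 and Slc34a3 at 4.12 ± 1.80 FPKM (n = 3) closed the order and did not differ beyond their spread. Calb1 thus ranked 4 of 10 in sham and 8 of 10 in uIRI.

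The balance of the vitamin D hydroxylase RNAs was read within each library as the log2 ratio of Cyp27b1 to Cyp24a1, each as FPKM with a pseudocount of 1. It was -2.03, -1.86 and -1.75 in uIRI+MSC, -1.91, -2.10 and -1.34 in uIRI and -4.58 and -3.88 in sham. Every library with injury, with or without MSC, had a higher ratio than both sham libraries. The difference in means was 2.44 for uIRI against sham (two-sided exact permutation p = 0.1) and 2.35 for uIRI+MSC against sham (exact permutation p = 0.1). For uIRI+MSC against uIRI it was -0.10 (exact permutation p = 0.9), and the groups overlapped. With 3 libraries against 3, or 3 against 2, the smallest p this test can give is 0.1. The ratio of Slc34a1 to Slc34a3 differed less, by 0.51 for uIRI+MSC against uIRI, -0.14 for uIRI against sham and 0.37 for uIRI+MSC against sham (exact permutation p of 0.2, 0.8 and 0.2). Without uIRI 1 the difference for uIRI against sham turned to 0.0364.

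**Figure D3:**
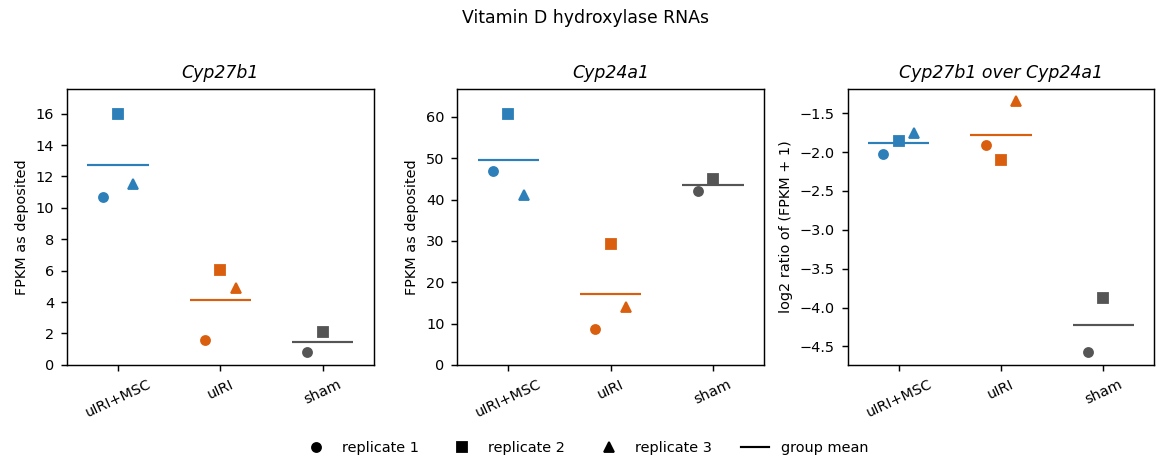
Deposited FPKM of Cyp27b1 and Cyp24a1 (vertical axes from 0) and the log2 ratio of their FPKM with a pseudocount of 1, in every uIRI+MSC, uIRI and sham library. Lines are group means. The FPKM carry no TMM scaling, so FPKM levels of different groups are not directly comparable. The ratio lies between -2.10 and -1.34 in the 6 libraries with injury and at -4.58 and -3.88 in sham.

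Markers of the nephron segments that use these genes were read beside them. Cyp27b1 and Trpv5 did not fall in uIRI against sham, and nor did every listed marker. Trpm6, a distal convoluted tubule marker, had a mean of 28.9 CPM in uIRI and 27.4 CPM in sham. Whether the genes moved with their segments was not tested. In uIRI against sham 26.3% of all genes tested passed as lower and 28.3% as higher, which is the background for the counts below. Of 12 proximal tubule markers, 12 fell in uIRI against sham with a median log2 fold change of -3.14. Of 8 markers each, 7 of the thick ascending limb fell with a median of -1.86, 7 of the distal convoluted tubule with a median of -1.72 and 5 of the connecting tubule and principal cells with a median of -0.89. In uIRI+MSC against uIRI none of these markers passed, and the medians were 1.27, -0.36, 0.44 and 0.45 in the same order of segments. Markers of macrophages rose in uIRI against sham for 10 of 10, with a summed level of 1944 to 2559 CPM in uIRI+MSC, 3294 to 4998 CPM in uIRI and 236 to 275 CPM in sham. All 6 T cell, all 6 fibroblast and all 7 injured tubule markers rose as well in uIRI against sham. The summed level of the injured tubule markers was 10841 to 15926 CPM in uIRI+MSC, 5420 to 7898 CPM in uIRI and 848 to 1197 CPM in sham, so it was highest in uIRI+MSC, unlike that of the macrophage markers. Most of this sum was Spp1, with means of 10680 CPM in uIRI+MSC, 5423 CPM in uIRI and 996 CPM in sham. Lcn2 alone of the 7 had a lower mean in uIRI+MSC, 156 CPM, than in uIRI, 231 CPM. None of the 7 passed in uIRI+MSC against uIRI, where their median log2 fold change was 0.84 and that of the 10 macrophage markers -0.92. The fibroblast markers summed to 2026 to 3699 CPM in uIRI+MSC, 3390 to 8072 CPM in uIRI and 283 to 403 CPM in sham, and the T cell markers to 33.7 to 58.7 CPM in uIRI+MSC, 54.3 to 68.0 CPM in uIRI and 8.47 to 8.65 CPM in sham. The part of these cell types, and of the mitochondrial share, in the results of the 10 genes and of the pathway lists below was not tested. Parathyroid markers summed to at most 0.188 CPM, and Pth had 0 counts in all 8 libraries.

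Each of 5 genes was also read relative to a nephron segment, as its log2 CPM minus the mean log2 CPM of the listed markers in the same library. Slc34a1 stood 3.38 ± 0.07 above the proximal tubule markers in uIRI+MSC, 3.47 ± 0.04 in uIRI (SD, n = 3 each) and 3.13 ± 0.07 in sham (n = 2). The difference of uIRI from sham was 0.34 (exact permutation p = 0.1), while the gene itself had fallen (log2 fold change -2.78). Casr stood 1.32 ± 0.10 below the thick ascending limb markers in uIRI+MSC, 1.33 ± 0.17 below in uIRI and 2.37 ± 0.05 below in sham. Its difference of uIRI from sham relative to those markers was 1.04 (exact permutation p = 0.1), in the opposite direction to the change of the gene. Markers within a list moved unevenly. Of the thick ascending limb, Egf had a mean of 60.7 CPM in uIRI and 2633 CPM in sham, and Cldn16 14.6 and 14.5 CPM. Of the proximal tubule, Slc7a13 had 39.4 and 1380 CPM. The Slc34a1 and Casr differences were not computed without single markers, so their size may rest on a few of them.

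Calb1, relative to the distal convoluted tubule markers, stood at 1.63, 0.28 and 2.17 in uIRI+MSC, -0.77, 0.37 and 0.35 in uIRI and 2.53 and 2.57 in sham, so that every uIRI library was below sham, with a difference in means of -2.57 (exact permutation p = 0.1). Trpv5 went the other way, at 0.63, 1.41 and 0.65 in uIRI+MSC, 0.62, 0.59 and 0.42 in uIRI and -1.96 and -1.93 in sham, a difference of 2.49 for uIRI against sham (exact permutation p = 0.1). Kl stood at 4.08, 3.87 and 4.33 in uIRI+MSC, 2.42, 3.45 and 3.2 in uIRI and 3.91 and 4.0 in sham. Its uIRI libraries were below all others, with differences in means of -0.93 for uIRI against sham (exact permutation p = 0.2) and 1.07 for uIRI+MSC against uIRI (exact permutation p = 0.1). Kl itself had a log2 fold change of -3.05 in uIRI against sham, near the median of -3.14 of the proximal tubule markers. The median of the distal convoluted tubule markers was -1.72. These Kl values thus depend on the marker list chosen, and Kl was not read relative to the proximal tubule list. The same limit holds for Calb1 and Trpv5, which were read against the distal convoluted tubule list only. Markers of the connecting tubule and principal cells had a median of -0.89 in uIRI against sham.

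**Figure D4:**
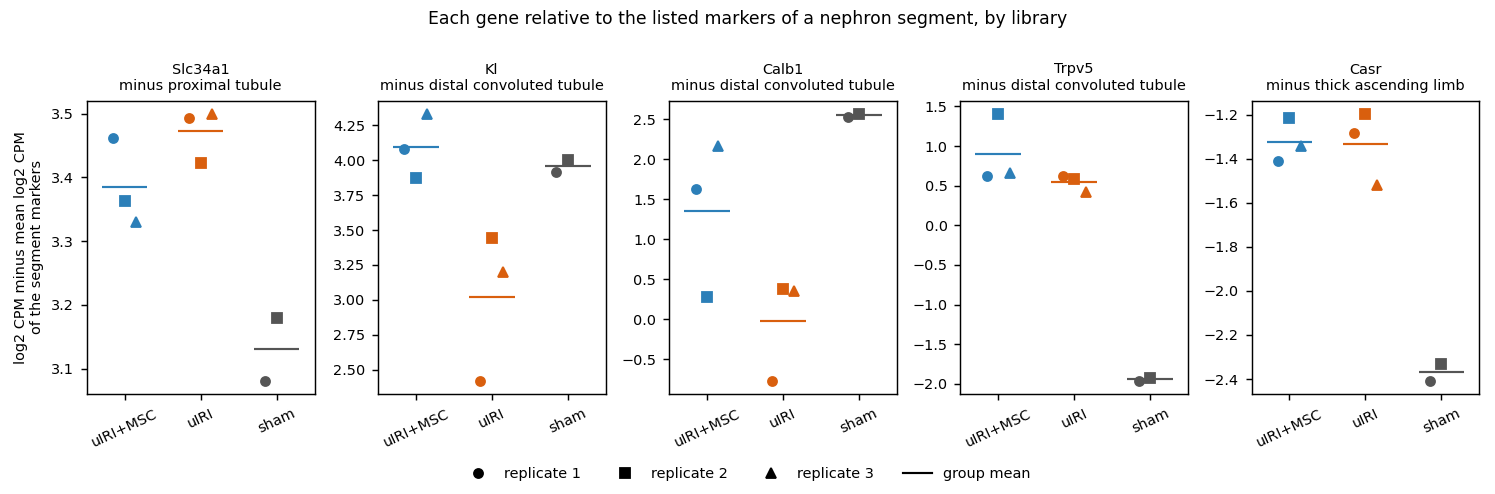
Level of 5 genes relative to the listed markers of a nephron segment (log2 CPM minus the mean log2 CPM of the markers, vertical axis with its own range in each panel) in every uIRI+MSC, uIRI and sham library; lines are group means. Calb1 and Kl are lower in uIRI than in sham by this measure, whereas Trpv5, Casr and Slc34a1 are higher.

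Pvalb, which encodes parvalbumin, stands among the distal convoluted tubule markers and was nearly absent with injury, with 1, 6 and 0 counts in uIRI+MSC, 0, 2 and 5 counts in uIRI and 174 and 146 counts in sham. Leaving it out of the marker list, a choice made after its values were seen, moved the uIRI against sham difference to -1.51 for Kl, -3.15 for Calb1 and 1.91 for Trpv5. It turned the uIRI+MSC against sham difference of Kl to -0.47, against 0.14 with Pvalb.

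Among the genes whose profile was nearest to that of Kl over the 8 libraries, by root mean square distance of centred log2 CPM among 8241 genes, were Sgk2 at 0.0996, Lrp2 at 0.123, Keg1 at 0.146 and Cubn at 0.157. Among the 10 genes the nearest to Kl was Slc34a1 at 0.238, followed by Slc34a3 at 0.276 and Vdr at 0.460. Nearest to Cyp24a1 were Tmem252 at 0.206, Timd2 at 0.219, Elovl2 at 0.249, Slc6a15 at 0.255 and Slc51a at 0.263. The closest pair among the 10 was Vdr and Pth1r at 0.188, and the farthest was Cyp27b1 and Calb1 at 2.57. These distances share the libraries and their depth, and are a description with no test.

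Of the wider FGF23 and klotho pathway, 9 of 11 listed genes were tested. In uIRI against sham 5 fell and 1 rose, with a median log2 fold change of -0.46, and so 6 of 9 passed, against 54.6% of all genes tested. The receptors Fgfr4 and Fgfr3 had log2 fold changes of -1.49 ± 0.25 and -1.21 ± 0.15, Furin, a protease that cleaves FGF23, -1.04 ± 0.16, and Galnt3, which glycosylates FGF23, -0.96 ± 0.18. With scaling by library size alone the Galnt3 change was -0.29 and did not pass (adjusted p = 0.149, edgeR). The gene that rose, Fgfr1, by 0.60 ± 0.13, was singled out after its values were seen. Fgf23 itself had 7 counts over all 8 libraries and was not tested. Against sham, uIRI+MSC kidneys again had 5 lower and 1 higher, against 42.4% of all genes tested that passed, with Fgfr3 at -0.90 ± 0.15, Furin at -0.78 ± 0.16, Fam20c, a kinase that phosphorylates FGF23, at -0.46 ± 0.13 and Fgfr1 at 0.48 ± 0.12. Without sham 1 the calls of Furin (adjusted p = 0.0659), Fgfr1 (0.0899) and Fam20c (0.160) were lost in uIRI+MSC against sham, and without sham 2 that of Fam20c (0.0741, edgeR). With scaling by library size alone Fam20c turned to 0.0555 and Furin was at -0.26 (adjusted p = 0.157, edgeR), no longer passing.

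Of the vitamin D genes beyond the 10, 15 of 16 were tested. In uIRI against sham 8 fell and 0 rose, with a median log2 fold change of -0.56. The share that passed, 8 of 15, was near the 54.6% of all genes tested, of which 26.3% fell and 28.3% rose. Lrp2 and Cubn, which encode megalin and cubilin, the endocytic receptors that take up vitamin D with its binding protein, had log2 fold changes of -2.87 ± 0.42 and -2.71 ± 0.44. Fdx1, the ferredoxin that passes electrons to mitochondrial hydroxylases, had -2.03 ± 0.29 and Rxra, the partner of the vitamin D receptor, -0.98 ± 0.16. With scaling by library size alone the Rxra change was -0.31 and did not pass (adjusted p = 0.110, edgeR). The uIRI+MSC kidneys had 6 lower and 1 higher than sham, 7 of 15 against 42.4% of all genes tested, with Lrp2 at -1.73 ± 0.41, Fdx1 at -1.58 ± 0.29, Rxra at -0.87 ± 0.16 and Fdxr, the reductase that feeds ferredoxin, at -0.85 ± 0.18. The gene that rose, Gc, which encodes the vitamin D binding protein, by 1.77 ± 0.46 (adjusted p = 0.0143, edgeR), was named after its values were seen. The Lrp2 call in uIRI+MSC against sham was lost without sham 1 (adjusted p = 0.0506, edgeR), and those of Rxra, at -0.35 (adjusted p = 0.0913), and Fdxr, at -0.33 (adjusted p = 0.192, edgeR), with scaling by library size alone.

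Of 10 listed phosphate transport genes, 6 fell and 1 rose in uIRI against sham, with a median log2 fold change of -0.94, against 54.6% of all genes tested that passed and 26.3% that fell. Slc17a1, a phosphate and anion transporter, had -3.44 ± 0.50, Pdzk1, a scaffold of the brush border, -2.72 ± 0.40 and the phosphate exporter Xpr1 -1.35 ± 0.19. The gene that rose was Slc34a2, another relative of Slc34a1 known from intestine and lung. It had 42.2, 31.7 and 71.3 CPM in uIRI+MSC, 52.3, 49.7 and 42.6 CPM in uIRI and 8.26 and 6.81 CPM in sham. All 6 libraries with injury were above both sham libraries, with a log2 fold change of 2.68 ± 0.35 for uIRI+MSC against sham and 2.68 ± 0.35 for uIRI against sham (adjusted p of 0.000638 and 0.000324, edgeR). Set against sham, uIRI+MSC had 2 higher and 4 lower, 6 of 10 against 42.4% of all genes tested, the other riser being the ubiquitous transporter Slc20a1 at 1.04 ± 0.15, and Pdzk1 was at -1.78 ± 0.39 and Xpr1 at -0.78 ± 0.19. Without sham 1 the Pdzk1 call (adjusted p = 0.0561) and the Xpr1 call (0.0766) were lost, and without sham 2 the Xpr1 call (0.0511, edgeR). With scaling by library size alone Xpr1 was at -0.27 and did not pass (adjusted p = 0.213, edgeR).

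Of 16 listed calcium transport genes, 4 rose and 6 fell in uIRI against sham, with a median log2 fold change of -0.31. That is 10 of 16 genes passing, against 54.6% of all genes tested, so the count was near the background. Trpv6, the channel next to Trpv5 in the genome, had 5.57, 5.93 and 6.55 CPM in uIRI+MSC, 9.26, 7.55 and 8.19 CPM in uIRI and 1.17 and 1.38 CPM in sham. It rose by a log2 fold change of 2.70 ± 0.25 in uIRI against sham (adjusted p = 7.86e-05, edgeR) and 2.23 ± 0.25 in uIRI+MSC against sham (adjusted p = 0.000360, edgeR). Anxa2, an annexin that binds TRPV5 and TRPV6 together with S100A10, rose by 2.54 ± 0.22 in uIRI against sham and 2.2 ± 0.22 in uIRI+MSC against sham. The claudin gene Cldn10 fell, at -2.23 ± 0.22 in uIRI against sham and -1.82 ± 0.22 in uIRI+MSC against sham. S100g, which encodes the other calbindin and was picked out after its values were seen, was at -3.13 ± 0.41 in uIRI against sham and -2.40 ± 0.40 in uIRI+MSC against sham. In uIRI+MSC against sham 4 rose and 8 fell, against 22.1% of all genes tested that rose and 20.3% that fell.

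Of 12 genes of parathyroid hormone and calcium-sensing signalling, 9 were tested, and in uIRI against sham 3 rose and 2 fell, so that 5 of 9 passed, against 54.6% of all genes tested, a share near the background. Those that rose were Rgs14, a regulator of G protein signalling, at 2.94 ± 0.41, and the arrestins Arrb2 at 2.49 ± 0.18 and Arrb1 at 0.59 ± 0.19. Prkaca, the catalytic subunit of protein kinase A, was at -0.38 ± 0.11 and turned to 0.28 with scaling by library size alone. In uIRI+MSC against sham 2 rose and 2 fell, 4 of 9 against 42.4% of all genes tested, again near the background, with Rgs14 at 2.53 ± 0.41, Arrb2 at 2.05 ± 0.18, Gna11, a G protein that couples to the calcium-sensing receptor, at -0.44 ± 0.13 and Prkaca at -0.33 ± 0.11, and Gna11 and Prkaca turned to 0.0739 and 0.19 with that scaling. The calls of Prkaca, Arrb1 and Gna11 were each lost without single libraries. Prkaca lost its call in uIRI against sham without uIRI 1, uIRI 3, sham 1 or sham 2 (adjusted p between 0.0545 and 0.166, edgeR) and in uIRI+MSC against sham without any of the 8 libraries in turn (0.0565 to 0.321, edgeR). Arrb1 lost it in uIRI against sham without uIRI 3, sham 1 or sham 2 (0.0648 to 0.131, edgeR), and Gna11 in uIRI+MSC against sham without uIRI+MSC 2, sham 1 or sham 2 (0.0654 to 0.171, edgeR). In uIRI+MSC against uIRI 0 genes of the 5 lists passed.

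**Figure D5:**
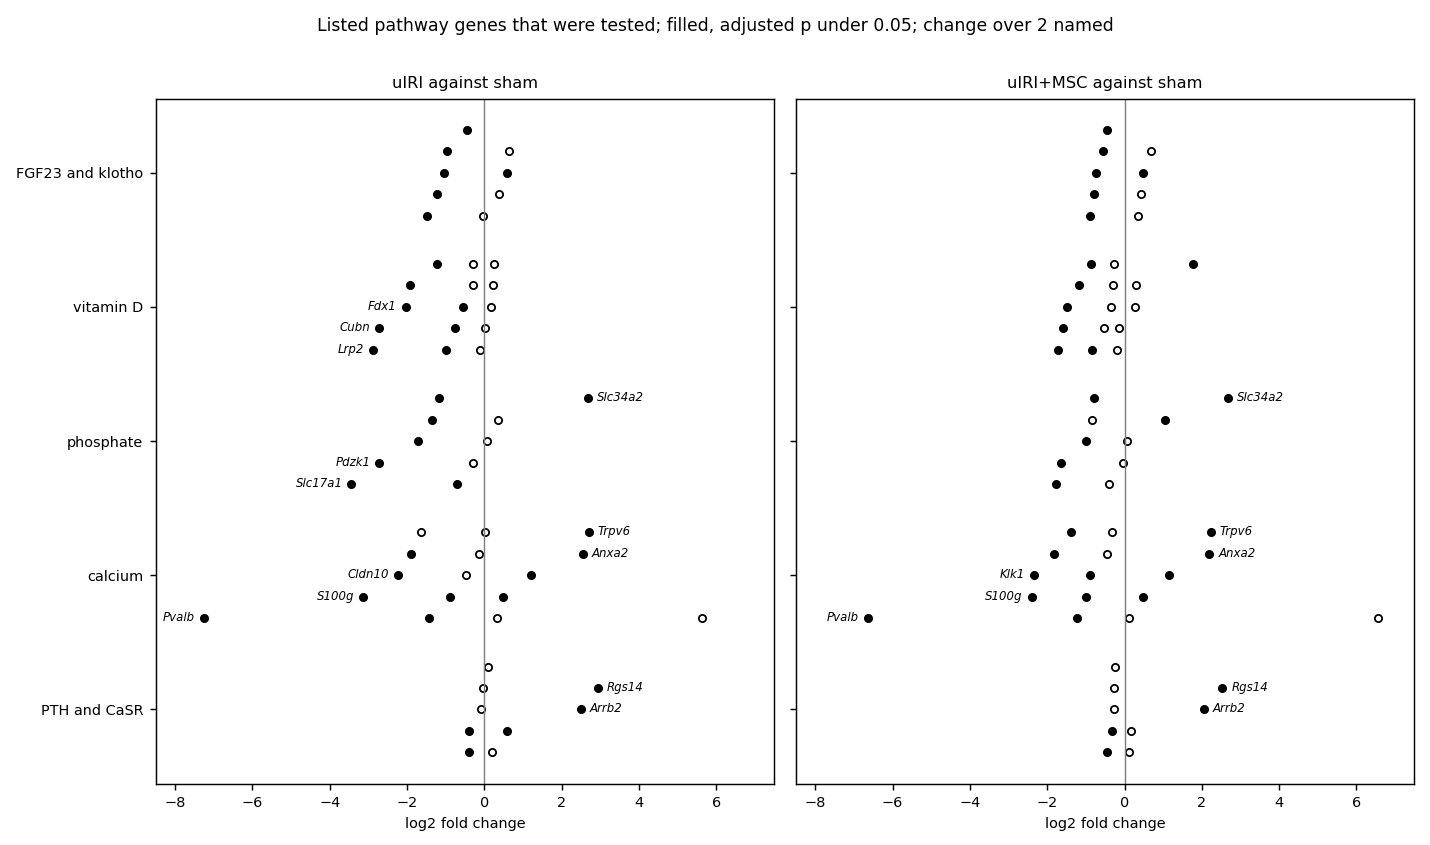
Log2 fold change (horizontal axis) of the tested genes of 5 pathway lists, without the 10 genes above, in uIRI against sham and uIRI+MSC against sham, filled where the adjusted p was under 0.05 (edgeR). Height within a list only separates the points, and called genes with a change over 2 are named; Slc34a2, Trpv6 and Rgs14 lie far to the higher side and Pvalb to the lower side in both.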

How the data were processed

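Gene expression was measured by RNA sequencing in 8 mouse kidney libraries. Per the labels, mRNA was isolated from total RNA and made into libraries. The deposited table, on GRCm38, holds raw read counts per gene and FPKM values made by the authors. Per the submitters' processing notes, HISAT2 2.0.4, StringTie 1.3.3b, Bowtie2 2.2.6, edgeR 3.2.0, SAMtools 1.9 and FastQC 0.10.1 were used, with roles not stated. FPKM equalled counts scaled per gene and library to within 0.000869% in 9632 genes.

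Counts were filtered with filterByExpr (minimum count 10), scaled by TMM and fitted in edgeR 4.0.16 (R 4.3.3; glmQLFit with legacy=TRUE, 5 residual degrees of freedom), with all groups in 1 fit and Benjamini-Hochberg adjustment over 16576 genes at 0.05. Replicates differed by 18.7 to 74.5 times the counting variance on average over genes, so spread and not depth set the precision for abundant genes. Abundant genes drive this mean, and it does not describe genes with few counts. Single values were compared by exact permutation over libraries, with a prior count of 2 for log2 CPM. Alternatives used DESeq2 1.42.0, limma 3.58.1, other scalings, filters and designs, and left out each library. The fit was also run on simulated data in which few genes changed and all genes had the same spread. That run cannot check the fit under shifts as broad as those seen here.

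Members and lists were chosen with earlier results of these data known. All 10 members are named, with up to 4 called genes of smallest p per pathway list and comparison. A gene picked for its likeness to Kl is not reported here. Figures were drawn with matplotlib 3.10.9.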

Additional observations from a re-analysis of the deposited data

How the results depend on the processing

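Under the 18 alternatives to each fit, the member genes kept direction and call in 515 cases, lost a call in 14, gained a call in 10 and changed direction in 1. The named pathway genes kept both in 677, lost the call in 39 and changed direction in 4. For uIRI+MSC against uIRI, DESeq2 called 1364 genes and 7 members against 0 and 0 by edgeR, and leaving out each library in turn gave 0 to 8 genes and 0 members. For uIRI+MSC against sham, leaving out each library gave 3938 to 6914 genes and 4 to 9 members, the lowest of both without sham 1, against 7029 and 9. Scaling by library size alone called 11033 genes in uIRI against sham, 82% of them higher against 51.8% by TMM, and 8752 in uIRI+MSC against sham, 84.6% higher against 52.2% by TMM, with the median of all genes at 0.73 and 0.55. It turned Cyp24a1 to 0.19, Fam20c to 0.0555, Gna11 to 0.0739 and Prkaca to 0.19 in uIRI+MSC against sham, and Prkaca to 0.28 in uIRI against sham. With a pseudocount of 0.1 the log2 ratio difference of Cyp27b1 to Cyp24a1 in uIRI+MSC against uIRI was 0.092, and that of Slc34a1 to Slc34a3 in uIRI against sham 0.11. Leaving out single libraries gave -0.25 to 0.12 for the Cyp27b1 ratio and -0.29 to 0.0364 for the Slc34a1 ratio. It gave -0.0831 to 0.079 for Casr relative to the thick ascending limb in uIRI+MSC against uIRI. Without Pvalb among the markers, an alternative chosen after seeing the data, Kl relative to the distal convoluted tubule was -0.47 in uIRI+MSC against sham. The cause of these changes was not tested.

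Same-numbered uIRI+MSC and uIRI libraries did not deviate together (correlations of -0.05, 0.07 and -0.10), so the numbers were not taken as pairs. With the replicate block 7959 genes and 8 members passed in uIRI against sham, 0 and 0 in uIRI+MSC against uIRI, and 5753 and 8 in uIRI+MSC against sham, where Slc34a1 had an adjusted p of 0.0503 (edgeR).

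With 2 sham libraries and 3 in the other groups, the smallest p of an exact test of a single value was 0.1. Low genes such as Fgf23, Klb, Pth and Pth2r were too shallow to compare at this depth.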
